A study of Mus musculus with 5 samples.

Results

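The genes described here form the switch that lets a cell leave G1: the D cyclins Ccnd1, Ccnd2 and Ccnd3, their kinases Cdk4 and Cdk6, the INK4 inhibitors Cdkn2a, Cdkn2b and Cdkn2c, the KIP inhibitor Cdkn1b, and Rb1, which the kinases act on. They were chosen by gene symbol in the platform annotation, and the probe with the highest mean signal stands for each gene. All 10 genes were measured, by 25 probes of the 45281 on the array, and all 25 probes passed the filter on dim signals, as did 16917 genes in all. The family was picked with earlier results of the same arrays known, among them the difference in Ccnd2. The difference of each member between the groups is therefore a description, and the adjusted p beside it says only where the gene stands in a fit over all genes.

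RNA came from whole mouse gliomas, 3 made with a mutant form of IDH1 (mutIDH1) and 2 with the wild-type form (wtIDH1), each hybridised to 1 Illumina BeadArray. Every mouse was Ntva Ink4a/Arf-/- on a mix of the FVB/N, C57BL6, BALB/C and 129 backgrounds. The mice received DF1 cells, a chicken fibroblast line that releases RCAS viruses, carrying PDGFa together with DF1 cells carrying either wtIDH1-shp53 or muIDH1-shp53, and tumours were taken when the mice fell ill. All 5 tumours thus share the Ink4a/Arf deletion, PDGFa and the p53 hairpin, and differ by label only in the form of IDH1. In Ntva mice the virus receptor tva is driven by the nestin promoter, which is active in neural progenitor cells. Ages are not given in the labels, and no label says that tumours of the same number are related.

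D cyclins are the mitogen-sensitive part of the cell cycle machinery: growth factor signals raise them, they bind CDK4 or CDK6, and the active kinase phosphorylates the retinoblastoma protein, which then releases E2F factors to switch on genes of DNA replication. INK4 proteins bind CDK4 and CDK6 and keep D cyclins off, while KIP proteins act mainly on CDK2 and also help D cyclin complexes assemble. In human gliomas this pathway is often altered by loss of CDKN2A and CDKN2B, by gain of CDK4 or by loss of RB1. The tumours here start from an Ink4a/Arf-deficient host, so Cdkn2a is the gene by which the model itself is defined.

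Values are deposited log2 signals, on which 1 unit is a doubling. Signals at or under 7.51, a level set from the mode of all signals and the spread below it, were taken as background. Between 18921 and 18933 probes lay above background on each array. This likeness follows from the shared distribution of the deposited signals and does not show the quality of the arrays. The mutIDH1 samples resembled each other more (SD of the difference between 2 samples over all genes 0.179 to 0.263) than the wtIDH1 samples did (0.403). Over all genes 76 were higher and 152 lower in mutIDH1 at an adjusted p under 0.05 (limma). All tissue was bulk, so fewer cells of a type and less RNA per cell cannot be told apart.

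In mutIDH1 gliomas Ccnd2 was higher by 1.72 ± 0.23 (log2, SE), a 3.30-fold difference, while Ccnd1, Ccnd3 and Cdk4 stood within 0.16 of the wtIDH1 level. By the fit over all genes Ccnd2 was the 1 member of 10 called higher, 0 were called lower, and 1.35% of all genes were called in either direction (0.449% higher). Since the contrast was known when the family was picked, nothing is read from that count. The groups did not overlap for 4 members, Ccnd1, Ccnd2 and Cdkn2c higher and Rb1 lower, against 30.6% of all genes (16.7% higher, 14.0% lower). Over the 25 probes 2 were called, both of Ccnd2, against 1.04% of all probes kept (0.298% higher), and the groups did not overlap on 10, against 29.4%. The median difference over the 10 members was 0.13, and over all genes 0.014.

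**Figure D1:**
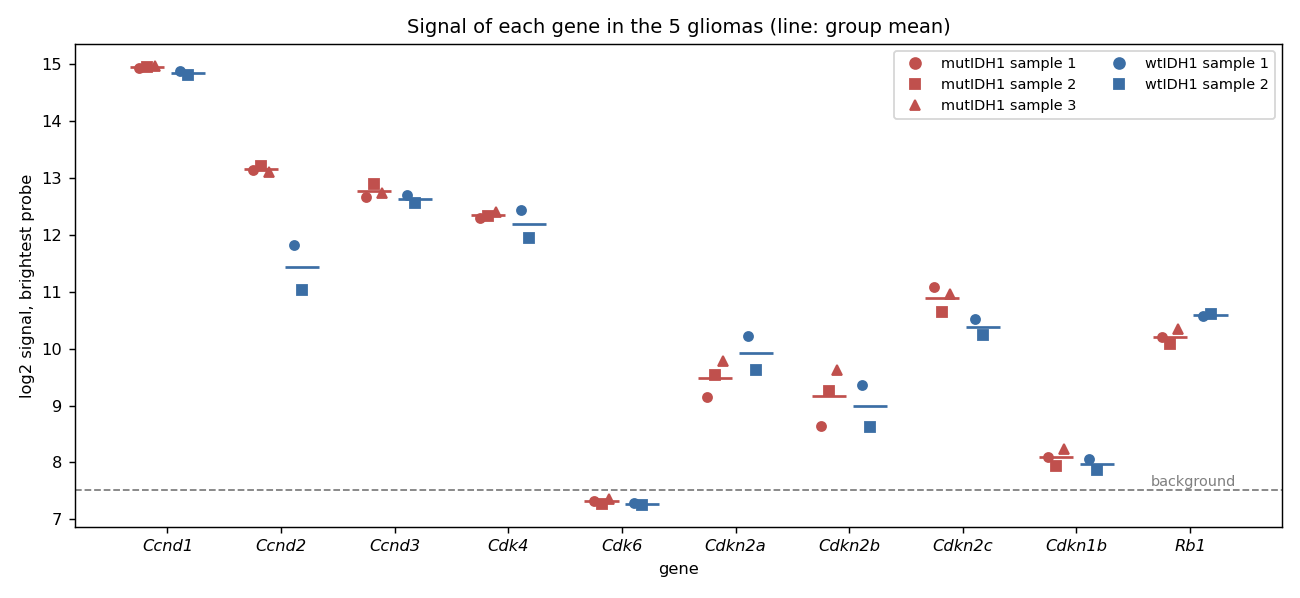
Log2 signal of the brightest probe (vertical axis) of each of the 10 genes (horizontal axis) in the 3 mutIDH1 (red) and 2 wtIDH1 (blue) gliomas, with a line at each group mean and a dashed line at the background level of 7.51. Ccnd2 is the gene with the widest gap between the groups, and Cdk6 lies under the dashed line in every glioma.

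Ccnd2 encodes cyclin D2, the D cyclin that the progenitors of adult-born neurons in mice depend on. Its brightest probe read 13.14, 13.22 and 13.10 in the mutIDH1 samples and 11.83 and 11.04 in the wtIDH1 samples. All 3 mutIDH1 tumours lay within 0.12 of each other, both wtIDH1 tumours lay lower, and the lowest mutIDH1 value stood 1.27 above the highest wtIDH1 value. The group means were 13.15 ± 0.06 (SD, n = 3) and 11.43 ± 0.56 (SD, n = 2), and the 95% interval of the difference ran from 1.15 to 2.29 (limma adjusted p = 0.0432). The 2 wtIDH1 tumours differed from each other by 0.79, so the size of the difference depended on which of them was used: it was 2.12 without wtIDH1 sample 1 and 1.33 without wtIDH1 sample 2. The call, but not the direction, was lost without any of the mutIDH1 samples in turn (adjusted p from 0.130 to 0.219, differences from 1.69 to 1.75) and with sex as a covariate (1.78, adjusted p = 0.0708).

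The other Ccnd2 probes gave a second reading of the same tumours. The second probe, annotated to the same transcript, read 12.44, 12.64 and 12.56 in mutIDH1 and 11.35 and 10.45 in wtIDH1. The third, annotated to a cDNA clone, read 9.61, 10.01 and 9.67 against 8.76 and 8.64. On both probes all mutIDH1 tumours again lay above both wtIDH1 tumours, by 1.65 ± 0.26 and 1.06 ± 0.14. In the fit over all probes kept, where 1.04% of probes were called, the adjusted p was 0.0426 for the first probe, 0.0644 for the second and 0.0417 for the third. The fourth probe lay between 7.35 and 7.52, above background on 1 array only, and differed by 0.075. The mean of all 4 probes, which takes in the dim one, differed by 1.13 (adjusted p = 0.0441).

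**Figure D2:**
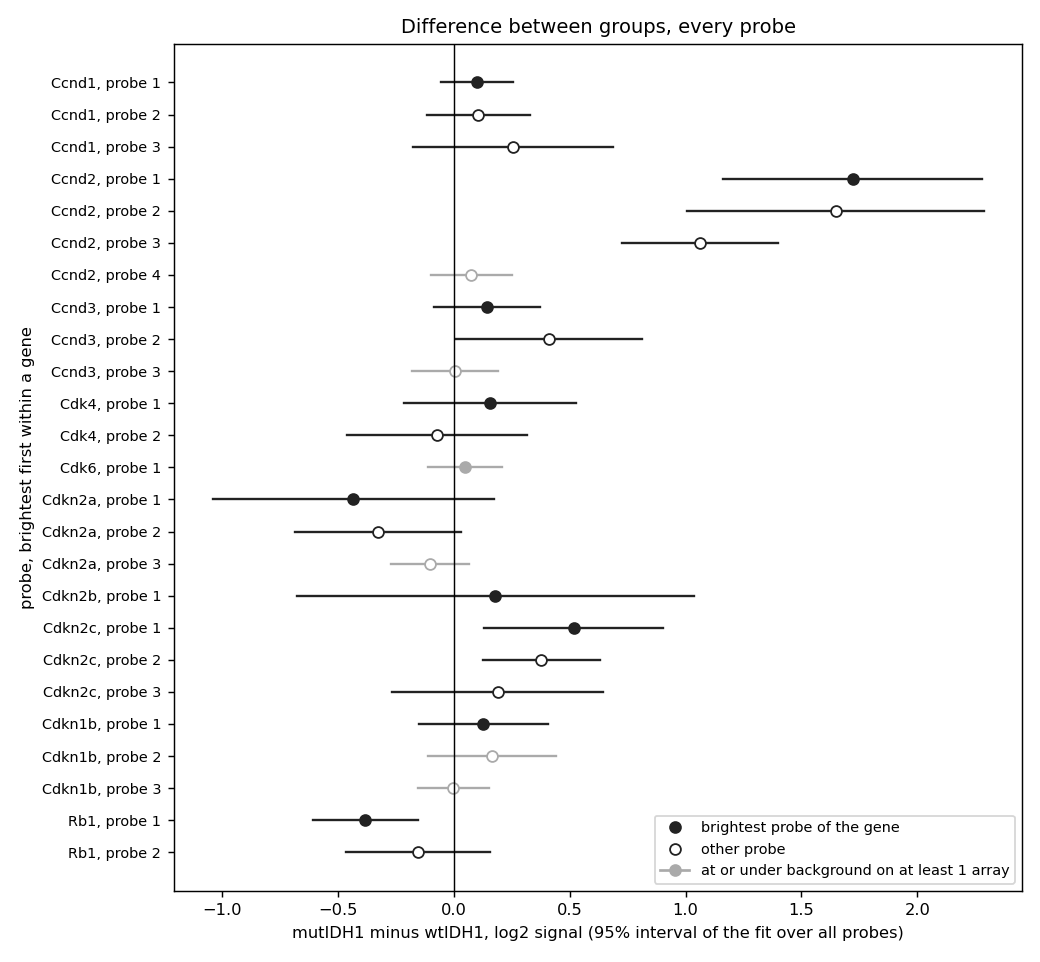
Difference in log2 signal, mutIDH1 minus wtIDH1 (horizontal axis), with its 95% interval for each of the 25 probes (vertical axis); filled circles are the brightest probe of a gene and grey marks are probes at or under background on at least 1 array. The first 3 Ccnd2 probes lie between 1.06 and 1.72, and no other probe of the family passes 0.52.

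Ccnd1 encodes cyclin D1, the D cyclin that growth factor signals induce in many cell types. Its brightest probe read 14.93, 14.95 and 14.97 in mutIDH1 and 14.88 and 14.82 in wtIDH1. The groups were separate, but by 0.047 only. The difference was 0.10 ± 0.07 with an interval from -0.07 to 0.27 (adjusted p = 0.616). Only 10 probes on the array were brighter on average, and the highest signal anywhere was 15.06, so this probe read near the top of the scale. The second Ccnd1 probe differed by 0.10 and the third, at 13.29 in mutIDH1 and 13.03 in wtIDH1 and so further from the top, by 0.25 ± 0.17 (adjusted p = 0.643 in the fit over all probes). On these last 2 probes the groups overlapped.

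Ccnd3, cyclin D3, read 12.67, 12.89 and 12.74 in mutIDH1 and 12.69 and 12.56 in wtIDH1. The groups overlapped, with a difference of 0.14 ± 0.10 and an interval from -0.10 to 0.38 (adjusted p = 0.614). Its second probe, annotated to another transcript, was higher in every mutIDH1 sample, by 0.41 ± 0.16 (9.37 against 8.96, adjusted p = 0.372), and the third was above background on 1 array. Probes differ in brightness for technical reasons, so the signals of the cyclins were not ranked against each other. Their spacing within a tumour can still be compared across tumours. Ccnd2 minus Ccnd1 was -1.78, -1.73 and -1.87 in mutIDH1 and -3.05 and -3.78 in wtIDH1. Ccnd1 minus Ccnd3 was 2.25, 2.06 and 2.23 in mutIDH1 and 2.19 and 2.26 in wtIDH1. The spacing of Ccnd2 to Ccnd1 thus differed between the groups by 1.62, while that of Ccnd1 to Ccnd3 differed by -0.04 and overlapped. Both spacings use the Ccnd1 probe that read near the top of the scale, which limits what they show. The spacing of Ccnd2 to Ccnd3, which does not use it, differed by 1.58.

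Cdk4, the kinase that D cyclins activate in most cell types, read 12.30, 12.34 and 12.41 in mutIDH1 and 12.44 and 11.95 in wtIDH1. The highest and the lowest value were both wtIDH1 tumours. The difference was 0.16 ± 0.15 with an interval from -0.23 to 0.54 (adjusted p = 0.747), and it turned to -0.089 without wtIDH1 sample 2. The second Cdk4 probe differed by -0.07. Cdk6, the kinase that shares these functions, had a single probe, which read between 7.25 and 7.36 and lay at or under background on all 5 arrays. No fold is therefore given for Cdk6, and its dim probe does not show whether the transcript was present.

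Cdkn2a encodes p16Ink4a, an inhibitor of CDK4 and CDK6, and, from an upstream start and another reading frame, p19Arf, which stabilises p53. The starts of Cdkn2a and of its neighbour Cdkn2b, the gene of p15Ink4b, are shown because the deletion in the host concerns Cdkn2a. The sequences are the 250 bases before each start on the minus strand of RefSeq GRCm38.p6, at chr4:89294620-89294869 and chr4:89282193-89282442 for Cdkn2a and chr4:89311033-89311282 for Cdkn2b. Capitals mark an E2F motif, searched as TTTCCCGC, TTTCGCGC, TTTGCCGC or TTTGGCGC on both strands.
Cdkn2a upstream start: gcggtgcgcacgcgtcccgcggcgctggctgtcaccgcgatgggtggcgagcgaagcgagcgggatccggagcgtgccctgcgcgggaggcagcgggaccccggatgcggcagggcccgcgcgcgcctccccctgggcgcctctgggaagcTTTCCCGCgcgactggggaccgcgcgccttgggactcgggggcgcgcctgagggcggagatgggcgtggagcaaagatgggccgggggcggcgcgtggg
Cdkn2a downstream start: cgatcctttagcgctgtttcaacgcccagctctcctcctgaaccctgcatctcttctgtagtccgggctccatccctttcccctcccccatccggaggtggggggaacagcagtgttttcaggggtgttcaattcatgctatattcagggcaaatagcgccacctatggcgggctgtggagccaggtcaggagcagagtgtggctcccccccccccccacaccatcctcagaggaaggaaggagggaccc
Cdkn2b: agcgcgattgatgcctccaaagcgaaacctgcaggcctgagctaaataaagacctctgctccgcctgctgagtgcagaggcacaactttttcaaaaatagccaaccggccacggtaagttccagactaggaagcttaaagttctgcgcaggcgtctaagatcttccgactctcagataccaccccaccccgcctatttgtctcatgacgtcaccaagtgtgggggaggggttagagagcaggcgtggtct
The upstream Cdkn2a start held 1 match, and the other 2 windows held 0. Among the 10 windows found for 7 members it was the 1 with a match, and 1.86% of 32851 windows of this length held one. Its window also had 40 CpG pairs, against 7 before the downstream start and 12 before Cdkn2b. A match is a string of letters and does not show a bound factor.

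Cdkn2a gave signal above background in every tumour although the mice are Ink4a/Arf-/-. Its brightest probe read 9.15, 9.53 and 9.78 in mutIDH1 and 10.22 and 9.62 in wtIDH1. The groups overlapped, with a difference of -0.44 ± 0.25 and an interval from -1.06 to 0.18 (adjusted p = 0.539). It was -0.14 without wtIDH1 sample 1, -0.27 without mutIDH1 sample 1 and -0.74 without wtIDH1 sample 2. The second probe, annotated to another transcript of the gene, read 8.76, 8.96 and 9.04 against 9.44 and 9.05. There the groups were separate by a narrow margin, with a difference of -0.33 ± 0.14 (adjusted p = 0.427 in the fit over all probes). The third probe, annotated to the same transcript as the first, was at or under background on all 5 arrays. Neither the place of the probes relative to the deleted part of the gene nor the cells that gave the signal is known from the files and labels, and the genotype could not be read from these values.

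Cdkn2b had 1 probe, which read 8.64, 9.26 and 9.63 in mutIDH1 and 9.37 and 8.62 in wtIDH1. It varied more within a group than between them: the mutIDH1 samples spanned 0.990, the wtIDH1 samples differed by 0.75, and the group difference was 0.18 ± 0.35 with an interval from -0.70 to 1.05 (adjusted p = 0.895). Its sign turned without mutIDH1 sample 3 (-0.048) and without wtIDH1 sample 2 (-0.20). Mtap, the nearest measured gene on the other side of Cdkn2a and often lost with it in human tumours, read between 10.02 and 10.32 in all 5 tumours and differed by -0.11.

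Cdkn2c encodes p18Ink4c, another INK4 inhibitor of CDK4 and CDK6. It read 11.08, 10.65 and 10.95 in mutIDH1 and 10.52 and 10.23 in wtIDH1. All mutIDH1 tumours lay above both wtIDH1 tumours, by 0.13 at the closest. The difference was 0.52 ± 0.16 with an interval from 0.12 to 0.91, and it did not pass (adjusted p = 0.224). The second probe differed by 0.38 ± 0.10 with separate groups (adjusted p = 0.201 in the fit over all probes) and the third by 0.19 ± 0.18 with overlapping ones.

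Cdkn1b, p27Kip1, read 8.09, 7.94 and 8.24 in mutIDH1 and 8.06 and 7.87 in wtIDH1. The groups overlapped, with a difference of 0.13 ± 0.12 (adjusted p = 0.726). That probe was above background on all 5 arrays, the second probe on 4 and the third on 0. Rb1, the retinoblastoma gene, read 10.20, 10.09 and 10.34 in mutIDH1 and 10.58 and 10.60 in wtIDH1. Each mutIDH1 tumour lay below both wtIDH1 tumours, by at least 0.24. The difference was -0.38 ± 0.10, or 0.767 of the wtIDH1 signal, with an interval from -0.62 to -0.14, and it did not pass (adjusted p = 0.154). The second Rb1 probe differed by -0.16 ± 0.12 and its groups overlapped.

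The wtIDH1 tumours differed from each other across the family. Of the 10 genes 9 were higher in wtIDH1 sample 1 than in sample 2, by 0.79 for Ccnd2, 0.75 for Cdkn2b, 0.60 for Cdkn2a and 0.49 for Cdk4, and Rb1 was lower by 0.020. The 9 take in Cdk6, at or under background on every array (0.038), and Ccnd1, near the top of the scale (0.062). Over all genes 53.5% were higher in sample 1. Markers of normal brain cells ran the other way. The mean log2 signal of 10 neuron markers was 7.72 in wtIDH1 sample 1 and 10.01 in wtIDH1 sample 2, and lay between 9.09 and 9.74 in mutIDH1, with Nefl, Snap25 and Tubb3 at background on every array. The highest neuron signal and the lowest Ccnd2 signal were thus in the same tumour, while all mutIDH1 tumours, with more neuron signal than wtIDH1 sample 1, also had more Ccnd2. The list means of oligodendrocyte markers (0 of 7 called) and astrocyte markers (0 of 8 called) were also lowest in wtIDH1 sample 1. They were 10.20 and 9.99 there, against 12.30 and 11.23 in wtIDH1 sample 2. Single markers did not all follow: Cldn11 and S100b, among others, were not lowest in wtIDH1 sample 1. The part of normal brain tissue in the family's values was not tested.

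Several lists of vessel and blood-derived cells held genes called lower in mutIDH1, against 0.899% of all genes. Of 10 endothelial markers 4 fell (among them Vwf by 1.34 and Emcn by 1.26), and the list's mean was 9.36 to 9.58 in mutIDH1 against 10.13 and 10.18 in wtIDH1. Of 9 mural cell and fibroblast markers 3 fell, among them Acta2 and Col1a1, with means of 8.52 to 8.69 against 9.45 and 9.56. Of 6 monocyte and macrophage markers measured, 4 fell, among them Plac8 and Mrc1, with means of 7.92 to 8.33 against 9.52 and 9.69. Oligodendrocyte precursor markers, which a PDGF-driven glioma is known to express, had 0 of 8 members called, with means of 12.12 to 12.24 against 12.07 and 11.93. Within that list Olig2 stood at 0.64 ± 0.17 (adjusted p = 0.168) and Olig1 at -0.32 ± 0.10 (adjusted p = 0.219), in opposite directions. No list of those 4 had a member at background on all arrays. Of 4 neutrophil markers 2 were called lower. S100a8 fell by 1.80, and S100a9 read 8.92 and 8.46 in wtIDH1 and lay at or under background in every mutIDH1 tumour, so that no size is given. Both red blood cell markers measured were lower in every mutIDH1 tumour without passing: Alas2 stood at -1.71 ± 0.38 (adjusted p = 0.123) and Hba-a1 at -1.36 ± 0.37 (adjusted p = 0.177), and their mean was 10.05 to 11.07 in mutIDH1 against 11.80 and 12.49 in wtIDH1. Of 9 microglia, 5 neuroblast and 4 T cell markers 0 were called. Among the microglia markers Fcrls stood at -0.90 ± 0.20 (adjusted p = 0.118) and Sall1 at 0.42 ± 0.10 (adjusted p = 0.140), in opposite directions. The T cell markers Cd3g and Cd4 lay at or under background on every array. Cd3d and Cd3e read between 7.30 and 7.59, so no difference could be read from the T cell list. All of these marker calls were lost without mutIDH1 sample 2, without mutIDH1 sample 3 and with unmoderated variances, where 0 genes in all were called lower. The part of these cells in the differences of Ccnd2 and Cdkn1c was not tested.

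**Figure D3:**
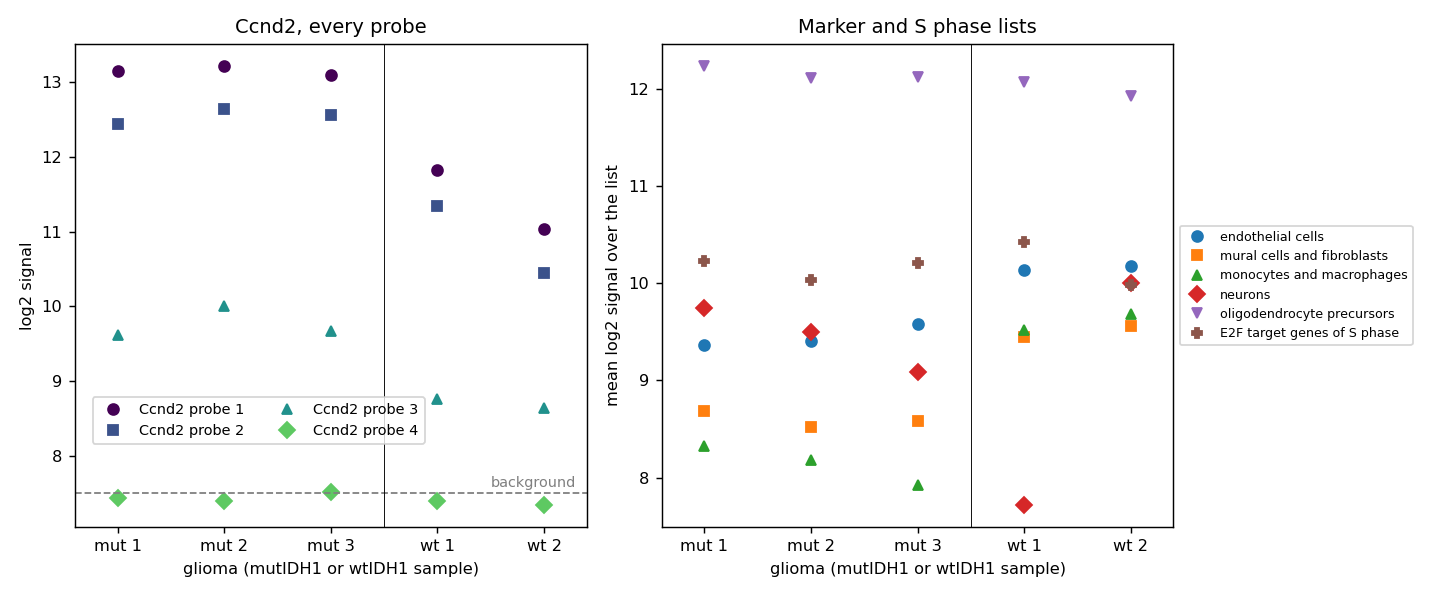
Left, log2 signal (vertical axis) of the 4 Ccnd2 probes in each glioma (horizontal axis), with the background level as a dashed line. Right, mean log2 signal of each list (vertical axis) in the same gliomas: vessel and macrophage lists are higher in both wtIDH1 tumours, neuron markers are lowest in wtIDH1 sample 1 at 7.72 and highest in wtIDH1 sample 2 at 10.01.

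Around the family, 110 further genes of the pathway were listed and 99 were measured; 0 rose and 1 fell, against 0.449% and 0.899% of all genes. The gene that fell was Cdkn1c, p57Kip2, an imprinted KIP inhibitor that blocks several cyclin-dependent kinases. It read 8.79, 9.06 and 8.48 in mutIDH1 and 10.45 and 11.20 in wtIDH1. The groups were far apart, with a difference of -2.05 ± 0.27, or 0.242 of the wtIDH1 signal (limma adjusted p = 0.0432). The call was lost without any of the mutIDH1 samples (adjusted p from 0.130 to 0.184), with sex as a covariate (0.0764) and with cyclic loess (0.0509), at differences between -2.19 and -1.90. Of the other 3 inhibitors, Cdkn3 stood at -0.51 ± 0.14 (adjusted p = 0.169), Cdkn1a, p21Cip1, at -0.38 ± 0.15 (adjusted p = 0.343) and Cdkn2d, p19Ink4d, at -0.18 ± 0.09 (adjusted p = 0.441). On the brightest probe of all 3 the groups were separate with mutIDH1 lower, as they are for 14.0% of all genes. For Cdkn1a the margin was narrow (10.97 against 10.99 at the closest). The second Cdkn1a probe differed by -0.44, with groups barely apart (9.77 against 9.78 at the closest). The third differed by -0.23 and its groups overlapped (adjusted p = 0.396 and 0.647 in the limma fit over all probes). The median of these 4 inhibitors was -0.45, and it was -0.26 without wtIDH1 sample 1 and -0.64 without wtIDH1 sample 2.

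The factors that the kinases act on and their targets had medians near that of all genes. Of 15 Rb family, E2F and DREAM factors measured, 0 were called, with a median of 0.037. That median is the value of E2f8, which lay at or under background on every array, as did Lin37 and Rbl2. Tfdp2, an E2F partner, stood at 0.30 ± 0.09 (adjusted p = 0.204) and E2f6, a repressive E2F, at 0.34 ± 0.11 (adjusted p = 0.229). Next by p, Rbbp4 stood at -0.19 ± 0.08 (adjusted p = 0.382) and Lin54 at 0.57 ± 0.29 (adjusted p = 0.481). Of 27 E2F target genes of S phase, 0 were called and the median was -0.02. Prim1 had the smallest p (adjusted p = 0.376). It lay at or under background in every mutIDH1 tumour and read 7.48 and 7.55 in wtIDH1, so that no size is given. Mcm7, of the replicative helicase, stood next at -0.27 ± 0.12 (adjusted p = 0.400). That list's mean signal was 10.23, 10.03 and 10.21 in mutIDH1 and 10.43 and 9.99 in wtIDH1, so the wtIDH1 tumours held both the highest and the lowest value. Its median was 0.21 without wtIDH1 sample 1 and -0.26 without wtIDH1 sample 2.

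Of 20 genes of G2 and mitosis listed, 17 were measured, and Ccnb1, Mki67 and Cenpe were not analysed. Of the 17, 0 were called, 14 had a difference below 0 and the median was -0.11. The median over all genes was 0.014. Bub1, Ccnb2, Hmmr and Ube2c lay at or under background on every array. The count below 0 takes in Ccnb2 and Ube2c, and the list median is the value of Ube2c. Leaving out mutIDH1 sample 1 gave a median of -0.22 and mutIDH1 sample 2 one of -0.032, while leaving out wtIDH1 sample 1 gave -0.025 and wtIDH1 sample 2 gave -0.19. Over all 5 tumours Birc5, survivin, stood at -0.49 ± 0.14 (adjusted p = 0.205), Tpx2, a spindle factor, at -0.47 ± 0.13 (adjusted p = 0.179) and Cdc20, an activator of the anaphase-promoting complex, at -0.36 ± 0.11 (adjusted p = 0.210). Of 10 genes of the cyclin E and A kinases and the CDK-activating kinase, 0 were called (median -0.05). Ccne2, cyclin E2, which acts after the D cyclins, had the smallest p and stood at 0.59 ± 0.18 (8.45 against 7.86, adjusted p = 0.219). Of 10 genes of D cyclin and p27 turnover, 0 were called (median -0.02), with Cryab, a chaperone that helps an F-box protein bind cyclin D1, at -0.52 ± 0.16 (adjusted p = 0.221). Of 16 transcription factors upstream of D cyclins, 0 were called (median 0.031). Those of smallest p were Ets1 at -0.41 ± 0.12 (adjusted p = 0.201) and Stat5a at -0.27 ± 0.09 (adjusted p = 0.278). Stat5a averaged 7.43 in mutIDH1, under the background level. Gli2 followed at -0.21 ± 0.08 (adjusted p = 0.304), then Foxo1, which induces p27, at 0.23 ± 0.08 (adjusted p = 0.305). Wee1 of the cyclin E and A list, Cks1b of the turnover list, and Lef1 and Mycn lay at or under background on every array.

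**Figure D4:**
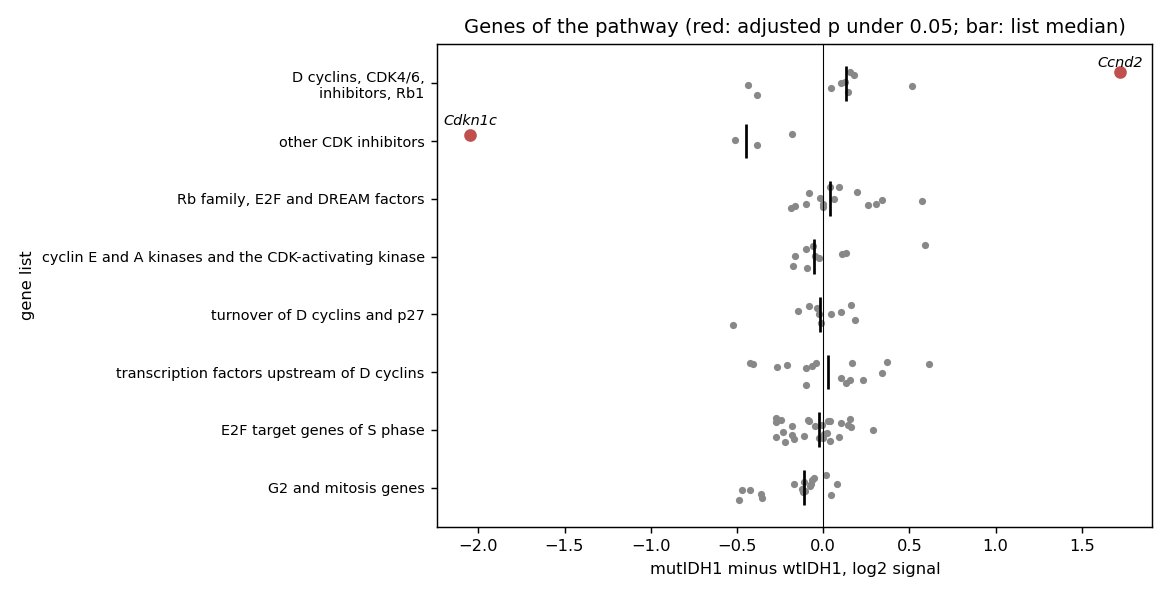
Difference in log2 signal, mutIDH1 minus wtIDH1 (horizontal axis), of each gene of the family and of the 7 pathway lists (vertical axis, dots spread at random within a list); black bars are list medians and red dots genes with an adjusted p under 0.05. Ccnd2 at 1.72 and Cdkn1c at -2.05 are the red dots, and the list medians lie between -0.45 and 0.13.

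None of the measured neighbours of Ccnd2 on the chromosome was called. Of the 3 nearest measured genes on each side, 0 were called and 4, Fgf6, Fgf23, Parp11 and Cracr2a, lay at or under background on all arrays. Prmt8, an arginine methyltransferase, stood at -0.15 ± 0.28. D6Wsu163e stood at 0.85 ± 0.17 with separate groups (10.11 against 9.25, adjusted p = 0.0974). Around the other 9 members 0 neighbours were called, against 1.35% of all genes. With so small a share, these counts do not show that neighbours were unchanged. The widest range of differences was around Cdkn2c, from -0.067 to 1.29.

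The 5 genes whose signal over the 5 tumours, centred on each gene's mean, lay closest to that of Ccnd2 among 11877 genes were Thsd7b, Cxcl13, Adamtsl3, Masp1 and Il1rap. Their root mean square distance to Ccnd2 was 0.246 to 0.284. Thsd7b (1.67 ± 0.08, adjusted p = 0.00709) and Cxcl13, a B cell chemokine (1.53 ± 0.20, adjusted p = 0.0402), were called higher. Adamtsl3, Masp1, a protease of the lectin complement pathway, and Il1rap, a subunit of the interleukin-1 receptor, stood between 1.18 and 1.23 and did not pass (adjusted p from 0.134 to 0.159). In all 5 genes wtIDH1 sample 1 lay above wtIDH1 sample 2, as for Ccnd2, by a narrow margin in Thsd7b (7.66 and 7.65). Closeness over 5 tumours is a description and carries no test. These genes were chosen for it, so their rise in mutIDH1 and, in part, the order of the wtIDH1 samples follow from the choice.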

How the data were processed

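Per the labels, total RNA of 5 whole mouse gliomas was measured on Illumina BeadArrays, 1 array a tumour. The deposited values are log2 signals of 45281 probes; the submitters' processing notes name limma with no version, and the background and normalization steps are not given in the sources used here. All arrays share 1 distribution (medians within 0.00069), as after quantile normalization, which removes differences in total RNA. A non-normalized table was not used, because the names of its 10 per-sample columns match no single sample's labels.

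Of the probes 34885 had 1 gene symbol, 18 several and 10378 none; 34807 were updated through RefSeq GRCm38.p6. Probes among the dimmest 20% (mean under 7.23) were left out, and the brightest probe stood for a gene. Background, 7.51, is the mode of all signals plus 3 times the spread below it. Differences (mutIDH1 minus wtIDH1) were fitted with limma 3.58.1 in R 4.3.3 (group only, 3 residual and 2.50 prior degrees of freedom, 2-sided, Benjamini-Hochberg over 16917 genes, threshold 0.05); errors are moderated SEs on 3 and 2 samples. The test was checked on simulated data with independent noise in each gene, which does not cover differences shared by many genes of a tumour. No labels give scan or extraction batches, and the number of arrays limits the precision. P-values treat the 5 tumours, which carry separate tumour codes, as independent.

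Members, pathway and marker lists, and the naming rule were chosen with earlier results of these data known. The rule named all members, up to 4 genes of smallest p per pathway list and up to 2 per marker list. It also named the 5 genes closest to Ccnd2 and the neighbours of a called member. Mtap, a neighbour of a member that was not called, was named after its values were seen. So were the defining markers and pathway genes given at or near background. Promoter sequences matched 7 members; Ccnd1, Ccnd2 and Rb1 had no entry. Tumours were taken as female where Xist exceeded Eif2s3y. Alternatives are given in the closing section.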

Additional observations from a re-analysis of the deposited data

How the results depend on the processing

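Under the other filters, probe summaries, normexp, cyclic loess, median centring and trended robust moderation, Ccnd2 stayed called, at 1.13 to 1.75. It lost its call at 1.72 with unmoderated variances (adjusted p = 0.292), at 1.78 with sex as a covariate (mutIDH1 sample 1 and wtIDH1 sample 1 read as female) and in the leave-one-out fits named above (range 1.33 to 2.12 over the 5). In each fit where Ccnd2 lost its call 0 members were called, and none was called lower in any fit run, so the member count ran from 0 to 1 without single samples. Leaving out a wtIDH1 sample makes the lone tumour vary like the mutIDH1 group by assumption.

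Over all genes, unmoderated variances called 0 higher and 0 lower (1985 at an unadjusted p under 0.05, against 2429 in the reported fit), sex as a covariate 10 and 49, trended robust moderation 253 lower, the fit of every probe 268 lower, and leave-one-out fits 0 to 245 higher and 0 to 234 lower. Pathway genes called lower fell from 1 to 0 with unmoderated variances, cyclic loess and sex, and ran from 0 to 2 without single samples (Cdkn3 added without wtIDH1 sample 2); Egr1 made the count of higher ones 1 without wtIDH1 sample 1 (range 0 to 1). Cdk6 was left out with the dimmest 40% of probes.

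The labels name no shared origin of tumours with the same number. Deviations from the group means correlated at r = -0.26 for number 1 and 0.11 for number 2. With 2 wtIDH1 tumours their deviations mirror each other, so these values cannot decide whether the numbers pair tumours. By Xist and Eif2s3y both number 1 tumours read as female and both number 2 tumours as male, as did mutIDH1 sample 3. With the replicate block, which leaves mutIDH1 sample 3 unused and 1 residual degree of freedom, 0 genes were called higher and 0 lower over all genes (1562 at an unadjusted p under 0.05), 0 members and 0 pathway genes were called, Ccnd2 stood at 1.75 (adjusted p = 0.410) and Cdkn2b turned to -0.048.

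Other signs that turned were Cdk4 (-0.089) and Cdkn2b (-0.20) without wtIDH1 sample 2 and Cdkn2b (-0.048) without mutIDH1 sample 3; without single samples Cdk4 ran from -0.089 to 0.40 and Cdkn2b from -0.20 to 0.55, while Ccnd3 (0.075 to 0.21), Cdkn1b (0.031 to 0.22) and Cdkn2a (-0.74 to -0.14) kept their sign. List medians near 0 turned their sign without single samples: Rb family, E2F and DREAM factors ran from -0.033 to 0.14, cyclin E and A kinases from -0.15 to 0.053, turnover from -0.048 to 0.059, upstream factors from -0.086 to 0.079 and E2F targets from -0.26 to 0.21. With the mean of probes the spacing of Ccnd2 to Ccnd1 differed by 0.97 and to Ccnd3 by 0.94, against 1.62 and 1.58. Without single samples these ran from 1.26 to 1.98 and from 1.25 to 1.91, and Cdk4 minus Cdk6, which rests on a probe at background, from -0.12 to 0.33. The cause was not tested. Probes near background or near the top of the scale limit Cdk6, Cdkn1b and Ccnd1.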
